A study of Rattus norvegicus with 108 samples.

Results

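Oligodendrocyte precursor cells (OPC) of the dorsal dentate gyrus (dorDG) were the 87 cells that carried this name in the authors' cell annotation, out of 1289 annotated dorDG cells (6.75%) and 3517 cells in the series. Male Long-Evans rats from Charles River stock were 2 months old at the start. Fluoxetine-treated rats (FT) took 18 mg/kg of the drug per day in drinking water for 6 weeks, and Sham rats took water alone. Each replicate was a pool of animals, and replicates are named here by the number in the labels. FT was represented by 4 dorDG replicates with 570 cells and 48 OPC, and Sham by 5 dorDG replicates with 719 cells and 39 OPC. The unit was the unique molecular identifier (UMI), a tag that counts each captured RNA molecule, and OPC held 502691 UMIs in all. The median OPC cell had 6104 UMIs (range 846 to 15476) over 3087 genes. Levels below are UMIs per 10000, from 3′ tags and not divided by transcript length, so genes were not compared with each other by level.

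OPC are the dividing glial progenitors that give rise to myelin-forming oligodendrocytes throughout adult life. They are recognised by the PDGF receptor alpha (Pdgfra) and the NG2 proteoglycan (Cspg4). Precursors that commit to the lineage pass through a stage marked by the receptor Gpr17 and by Bmp4, Bcas1 and Enpp6 before the genes of compact myelin are switched on. They receive synaptic input from neurons and carry glutamate receptors, GABA receptors and voltage-gated channels.

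Replicates differed in how many OPC they gave and of what kind. FT replicates 1, 2, 4 and 5 gave 14, 13, 14 and 7 OPC, whereas Sham replicates 1 to 5 gave 20, 8, 2, 4 and 5. According to the labels the libraries came from nuclei; the methods name both nuclei and whole-cell suspensions, and it is not given which reaction used which. Of the 87 OPC, 24 (27.6%) had under 2% of their UMIs from ribosomal protein genes, and these had a median of 2335.5 UMIs against 6712 in the others. These low-ribosomal cells made up 42.9%, 15.4%, 14.3% and 0% of OPC in the FT replicates. In Sham they made up 30%, 87.5%, 0%, 25% and 0%, so Sham replicate 2 stood apart. In the replicates split over a first and a second reaction, 9 of 43 OPC of the first reactions and 12 of 12 OPC of the second were low-ribosomal. Only 3 cell barcodes were shared between reactions, and 1 of these cells was an OPC. Replicates of a group differed beyond counting error in all 16 pairs (chi-square per degree of freedom 1.91 to 6.36).

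The cells carried the genes their name calls for. Pdgfra, the receptor for PDGF-A that drives precursor division, had UMIs in 79.3% of OPC cells. Its level was 4.19, 3.17, 7.23 and 5.05 in FT replicates 1, 2, 4 and 5, and 5.68, 1.16, 4.16, 10.4 and 7.31 in Sham replicates 1 to 5. All 9 replicates lay above the background that free RNA can give, which was read from Microglia1, Microglia2 and Endothelial cells, which should lack these genes (390 cells, median 3723 UMIs), where 4.62% of cells had a Pdgfra UMI at a pooled level of 0.108. Vcan, which encodes the matrix proteoglycan versican, had UMIs in 74.7% of OPC, with levels of 4.93, 2.75, 4.57 and 2.53 in FT and of 3.16, 1.93, 2.97, 3.45 and 4.98 in Sham. Cspg4 had UMIs in 55.2% of OPC, with levels of 2.59, 1.79, 3.04 and 0.421 in FT and of 1.68, 1.54, 0, 2.96 and 2.33 in Sham. Cspg4 was also present in the cells named Mossy, at 1.44 against 1.97 in all OPC. In these Mossy cells 7 mural genes summed to 25.7, against 2.73 in Endothelial and 0.756 in OPC. Their 8 neuronal genes summed to 3.33, against 40.9 in ExcitNeuron. Whether the cells under that name are neurons was not tested.

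Of the 87 cells, 34 had UMIs of Pdgfra, Vcan and Cspg4 together, 33 had UMIs of a pair of them, 14 of a single gene and 6 of none. The 6 cells without any were all low-ribosomal cells, of which 3 came from Sham replicate 2, 2 from Sham replicate 1 and 1 from FT replicate 2. Gpr17, the fourth marker of the name, was nearly without UMIs: 2 cells of 87 had 1 (2.30%, exact Clopper-Pearson interval 0.280% to 8.06%), both in FT replicate 1. Intervals here cover counting error only. The Gpr17 level was 0.0398 over all OPC and at most 0.0487 in any other type (Granule), so the gene was hardly captured in any dorDG type.

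A list of 22 OPC identity genes was read against the same background. A gene was taken as above background where its OPC level was at least 2 times the highest of the 3 background types and it exceeded their pooled level in at least 7 of 9 replicates, a boundary chosen after the values were seen. By this rule 19 of the 22 genes stood above background. Other glia were not part of this background. The 22 genes summed to 79.8 in OPC, 52.7 in AstroSub1, 31.2 in BergGlia and 13.3 in Oligodend1. Standing above background thus did not make a gene particular to OPC. Ptprz1, a receptor phosphatase that holds precursors undifferentiated, stood at 20.03 against a highest background of 0.679. The transcription factor Sox6 stood at 7.90 against 2.02, Olig1 at 5.55 against 0.167, and Sox10, which the whole lineage shares, at 1.87 against 0.258. The adhesion genes Pcdh15 (6.58 against 0.622) and Megf11 (3.98 against 0.280) and the proteoglycan gene Cspg5 (6.09 against 0.243) were likewise above it. Nkx2-2 and Ncan were among those that did not meet the rule, with OPC levels of 0.0398 and 0.358. Here and below, whether the background types express some genes of a list themselves was not tested. Missing the rule therefore does not show absence.

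**Figure D1:**
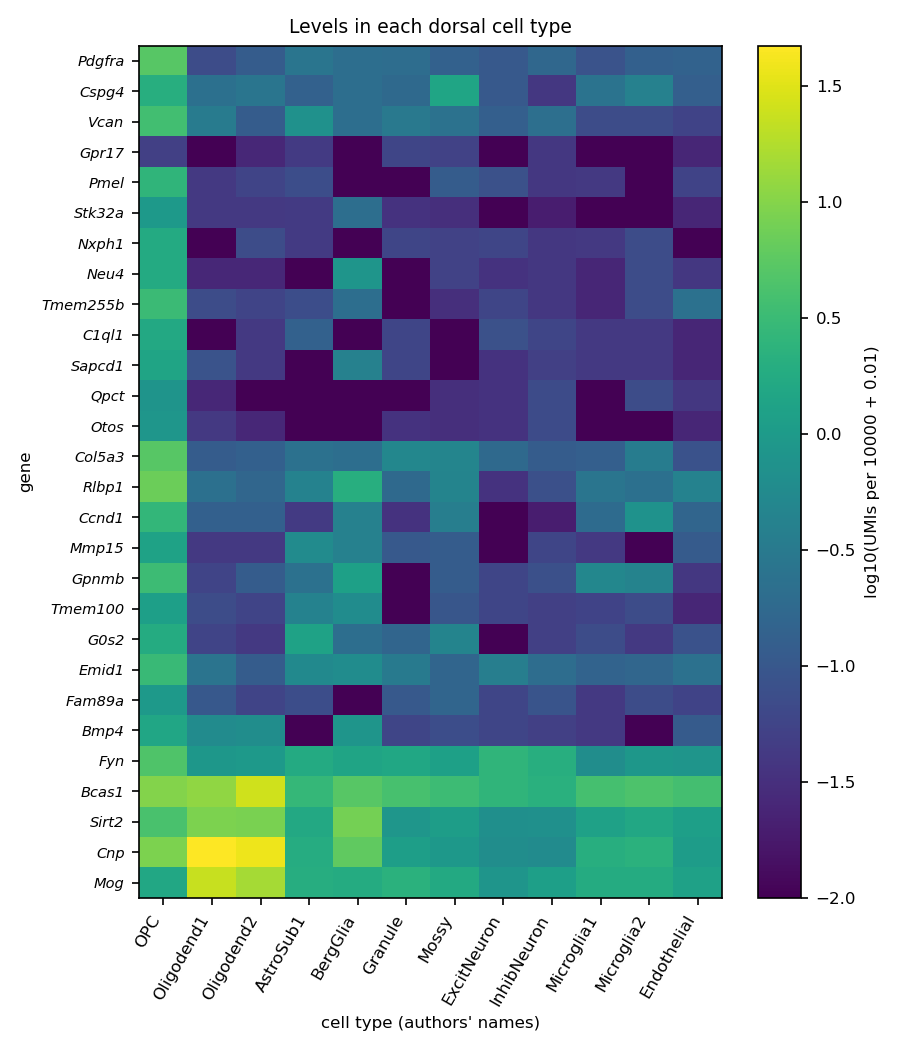
Level (UMIs per 10000, colour on a log10 scale) of identity, transition and myelin genes (vertical) in the 12 annotated dorDG cell types (horizontal), each pooled over its cells, with 0.01 added before the log. Pdgfra reaches 5.15 in OPC and at most 0.258 in any other type, whereas Cnp reaches 47.2 in Oligodend1 against 8.97 in OPC.

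Apart from these lists, 3579 genes were detected in at least 25% of OPC cells. Of these, 528 had a mean replicate level at least 2 times that in all other dorDG cells, 84 at least 5 times and 33 at least 10 times. The cells were named from these same counts, so these ratios describe the name and were not tested. The highest ratio belonged to Pmel, a melanosome fibril gene, at 81.5 (mean 3.15 ± 3.01 SD over 9 replicates against 0.0386 ± 0.0244). The kinase gene Stk32a, the secreted neurexin ligand Nxph1, the sialidase gene Neu4 and Tmem255b followed with ratios of 71.2, 66.5, 58.0 and 57.8. C1ql1, which encodes a secreted C1q-like protein, had 43.7 and Pdgfra 42.3. The remaining members of the 20 highest were Sapcd1, Qpct, Otos, Col5a3, Rlbp1, Ccnd1, Vcan, Mmp15, Gpnmb, Tmem100, G0s2, Emid1 and Fam89a, with ratios from 40.9 down to 15.3. Ccnd1, which encodes cyclin D1, averaged 3.61 ± 3.08 against 0.138 ± 0.0725. Tmem255b, Col5a3, Rlbp1 and Emid1 were among the genes whose lowest OPC replicate (2.37, 3.79, 3.86 and 2.37) lay above the highest value of the other cells (0.105, 0.344, 0.326 and 0.381). Some of the 20 were shared with the cells named BergGlia, where Rlbp1 stood at 2.01, Gpnmb at 1.21 and Neu4 at 0.804.

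Markers of other cell types were mostly at background in OPC. None of 10 microglial, 9 endothelial or 7 mural genes stood above it. Of 8 neuronal genes only Syt1, a calcium sensor of vesicle release, did so (5.15 against 1.96), while Snap25 (1.87 against 1.14), Slc17a7, Gad1, Gad2 and Rbfox3 did not. Of 10 astrocytic genes the metabolic enzyme gene Aldoc (3.28 against 1.09), the glutamate transporter gene Slc1a3 (3.10 against 1.43) and Slc4a4 (0.875 against 0.413) did, whereas the astrocyte-defining Aqp4 (0.159) and Gja1 (0.259) did not and Aldh1l1 was at 0. Among cells of at least 2% ribosomal UMIs Slc4a4 no longer met the fold, which left 2. Of 8 fibroblast genes, which were included because fibroblasts also express Pdgfra, only Mgp stood above background at 1.41 against 0.634; the collagen gene Col1a1 was at 0.0199, and Lum and Col3a1 were at 0. In OPC the summed astrocytic genes were 10.2 against 134 in AstroSub1, and the summed neuronal genes were 8.28 against 40.9 in ExcitNeuron.

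OPC were then examined for cells on the way to oligodendrocytes. Of 20 genes of committed precursors and newly formed oligodendrocytes, 9 stood above background. Bcas1, a marker of early myelinating cells, stood at 9.87, 8.13, 11.3 and 7.58 in FT and at 10.5, 9.65, 13.1, 10.9 and 10.6 in Sham, against a highest background of 4.45. All 9 replicates were thus close together and above it, but among cells of at least 2% ribosomal UMIs Bcas1 no longer met the rule, which left 8 genes. The kinase gene Fyn (4.52 against 0.871), the deacetylase gene Sirt2 (4.20 against 1.59), the axon-glia adhesion gene Nfasc (3.80 against 1.03) and Sema5a (2.67 against 0.472) were above background. So were Neu4 (1.73), the growth factor gene Bmp4 (1.47 against 0.103), Tmem163 (0.676) and the myelin regulator Myrf (0.298 against 0.124).

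Several genes that define the committed stage did not meet the rule, which does not show that they were absent from OPC. Enpp6, which newly formed oligodendrocytes carry, stood at 1.23 against a highest background of 0.871. Itpr2 (2.25 against 2.40), Tns3 (1.23 against 0.871) and the Wnt effector Tcf7l2 (0.517 against 1.05) were likewise within the range of the other types or under 2 times it. Sirt2 was uneven, with levels of 2.097, 13.4, 1.27 and 2.53 in FT and 2.70, 0.772, 1.19, 2.47 and 2.33 in Sham. FT replicate 2 alone was high in it, and without that replicate the level over all OPC would be 2.06, under 2 times the highest background.

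Myelin genes were mostly at background. Of 23 genes of mature oligodendrocytes, 5 stood above it, namely Cnp (8.97 against 2.18), Cryab (2.86 against 1.40), Plekhb1, Tspan2 and the sphingolipid enzyme gene Ugt8 (1.03 against 0.182). The major myelin genes did not. Mbp, which encodes myelin basic protein, stood at 52.0 in OPC against 53.4 pooled over the background types, and Mobp and Mog at 8.34 and 1.57 against 10.1 and 1.58. An Mbp UMI was found in 98.7% of the background cells and in 100% of OPC.

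Cells varied widely in the committed genes. Their sum over the 20 genes had a median of 28.6 UMIs per 10000 in OPC, with quartiles of 20.3 and 38.6 and a maximum of 176. For comparison, the median was 9.56 to 18.7 in the 9 types outside the lineage, 31.8 in Oligodend1 and 44.7 in Oligodend2. A sum above 50 was found in 8 OPC cells, 4 from FT and 4 from Sham, and above 75 in 4 of these. Of the 8 cells, 5 were low-ribosomal cells with 1079 to 3496 UMIs. The highest cell, from FT replicate 2, had 15476 UMIs, the most of any OPC, and levels of 51.7 for Sirt2, 29.7 for Fyn and 55.6 for Cnp. It had no Pdgfra UMI. The next came from Sham replicate 1 with 3496 UMIs, a sum of 157 and 83.0 for Bcas1 alone. The third and the fourth, from Sham replicate 1 and FT replicate 2, had sums of 93.3 and 79.5 and no Pdgfra UMI either.

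**Figure D2:**
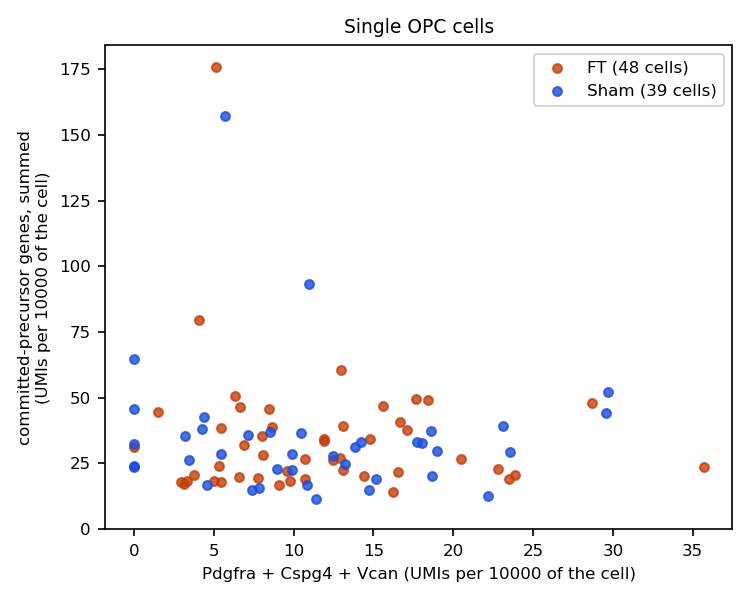
Each point is an OPC cell (48 FT and 39 Sham cells, in different colours), with the summed level of Pdgfra, Cspg4 and Vcan on the horizontal axis and the summed level of the 20 committed-precursor genes on the vertical axis, both in UMIs per 10000 of the cell. The quartiles of the committed sum are 20.3 and 38.6, and 8 cells, 4 per treatment, lie above 50.

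OPC were also read for cell cycle genes, which dividing precursors carry. UMIs of at least 1 of 19 cell cycle genes were found in 53 cells, of 3 or more in 12 cells and of 5 or more in 5 cells. The highest was a cell of FT replicate 4 with 46 UMIs of 10 genes and a Pdgfra level of 5.76. None of the 19 genes stood above background over all OPC, among them the proliferation markers Mki67 (0.0995 against 0.0885), Top2a (0.259 against 0.124) and Pcna (1.17 against 2.61).

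Because Gpr17 could not divide the cells, Bmp4 was used in its place, a choice made after the values were seen. Bmp4 encodes a bone morphogenetic protein and was found in 40 OPC cells. The Bmp4-positive cells had a median of 6764 UMIs and 12.5% low-ribosomal cells, against 4957 UMIs and 40.4% in the 47 Bmp4-negative cells. Among cells thinned to 1000 UMIs, the share with a Bmp4 UMI was 14.3%, 8.33%, 21.4% and 14.3% in FT replicates 1, 2, 4 and 5 and 15%, 14.3% and 20% in Sham replicates 1, 2 and 5. Without thinning it was 50%, 46.2%, 42.9% and 42.9% in FT and 50%, 12.5% and 40% in Sham. The thinned difference of -1.85 percentage points (FT minus Sham) was within the spread of the replicates (two-sided exact permutation test, p = 0.80, 35 splits, smallest possible p 0.0571), so at this size the design could not reach 0.05.

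Within replicates, Bmp4-positive cells were compared with Bmp4-negative cells on summed counts with the replicate as a block (edgeR, 5 replicates with at least 3 cells of each kind, 32 against 36 cells). Here and below, calls needed an adjusted p (Benjamini-Hochberg) no higher than 0.2 with a log2 change of 0.32 or more, the study's thresholds. Of 4362 genes tested, 15 were called (0.344%), 2 higher (0.0459%) and 13 lower (0.298%) in Bmp4-positive cells. Cnp, an enzyme of myelinating cells, rose from a mean level of 5.72 to 12.3, a log2 fold change of 1.04 ± 0.25 (SE, adjusted p = 0.0833), and was higher in 5 of 5 replicates. Atp5b, a subunit of the ATP synthase, rose by a log2 fold change of 0.86 ± 0.24 (adjusted p = 0.180), also in 5 of 5. Without FT replicate 2 the Cnp change was 0.60 (edgeR, adjusted p = 0.508), so Cnp was not called there. The cell of FT replicate 2 with the highest committed sum was Bmp4-positive and had a Cnp level of 55.6.

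The AMPA receptor subunit gene Gria1 fell from 4.56 to 1.46 (log2 fold change -1.65 ± 0.37, adjusted p = 0.0568) and the NMDA receptor subunit gene Grin2a from 3.22 to 0.895 (-1.64 ± 0.44, adjusted p = 0.180), each higher in Bmp4-positive cells in 1 of 5 replicates only. Syt1 fell from 6.78 to 2.80 (-1.22 ± 0.31, adjusted p = 0.103) and the sulfotransferase gene Chst11 from 6.38 to 2.54 (-1.30 ± 0.30, adjusted p = 0.0568), both higher in 0 of 5 replicates. A single Bmp4-negative cell of Sham replicate 1, with 10357 UMIs and none of Pdgfra, Vcan or Cspg4, held 40 of that replicate's 58 Gria1 UMIs, 55 of its 79 Syt1 UMIs and 73 UMIs of the 8 neuronal markers. Without this cell the log2 fold changes were -1.04 for Gria1, -1.35 for Grin2a and -0.62 for Syt1 (adjusted p of 0.696, 0.696 and 0.815, edgeR), so none of the 3 was called. Cnp and Atp5b also missed the threshold there (adjusted p of 0.21 and 0.516), and Chst11 was still called (-1.35, adjusted p = 0.0958). Snhg11, Trps1, Pde5a, Rfc1, Fgf14 and Kctd16 were also lower, as were 2 loci without a gene name. Summed neuronal markers moved with the split, at 5.20 in Bmp4-positive and 11.7 in Bmp4-negative cells (9.03 without that cell), and so did depth and the low-ribosomal share given above. Their part in the result was not tested. Of the 15 genes, 12 could be tested among cells of at least 2% ribosomal UMIs (28 against 24 of the same cells). There 0 were called (edgeR, smallest adjusted p 0.304, 165 genes at unadjusted p under 0.05). All 12 kept their direction, which carries little weight, since the genes were chosen in the full split and most cells were shared. DESeq2 called 0 as well, with 71 at unadjusted p under 0.05. Leaving out FT replicate 1 gave 1 call, FT replicate 2 or FT replicate 5 gave 27 each, FT replicate 4 gave 5 and Sham replicate 1 gave 6, of which 3 were among the 15 and Gria1, Grin2a and Syt1 were not. Leaving out only the cell named above gave 2 calls, as did leaving out the 6 cells without Pdgfra, Vcan or Cspg4, alternatives chosen after seeing the data.

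Receptor and channel genes were read against the same background. Of 25 growth factor and cytokine receptor genes, 5 stood above it: Pdgfra, the neuregulin receptor gene Erbb4 (6.66 against 1.80), the neurotrophin receptor genes Ntrk2 (4.18 against 1.65) and Ntrk3 (2.65 against 0.743), and Acvr2a. Il1rapl1, an adhesion-type member of the interleukin-1 receptor family, stood at 25.7 against 16.0 and missed the rule. The receptors Fgfr1, Igf1r and Erbb3 also missed it, and Erbb2 had 0 UMIs, which allows a level of up to 0.0597. In the authors' Oligodend1 cells Erbb4 stood at 4.06 and Pdgfra at 0.0619.

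Of 38 guidance and adhesion receptor genes 22 stood above background. Besides Ptprz1 they included the synaptic adhesion genes Nlgn1 (10.6 against 2.02) and Lrrtm3 (5.41 against 0.280), the adhesion G protein coupled receptor gene Bai3 (8.59 against 1.77), Cntn1 (4.99 against 0.373) and the netrin receptor gene Dcc (4.73 against 1.17). Nrxn2, Ncam1, Robo1 and Unc5c were also above it. Lrrtm3 was at 3.58, 2.43, 4.95 and 3.79 in FT and at 5.58, 0.772, 40.4, 6.41 and 6.65 in Sham, so that Sham replicate 3, with only 2 OPC, stood far from the rest. Of 27 G protein coupled receptor genes, Gpr37l1 (3.84 against 0.121) and the GABA-B subunit gene Gabbr1 (1.81 against 0.902) stood above background. Among cells of at least 2% ribosomal UMIs, 21 guidance and adhesion genes and 1 G protein coupled receptor gene still met the same fold, Gabbr1 being the one lost. Lpar1, a lysophosphatidic acid receptor gene, stood at 6.15 against 6.45.

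**Figure D3:**
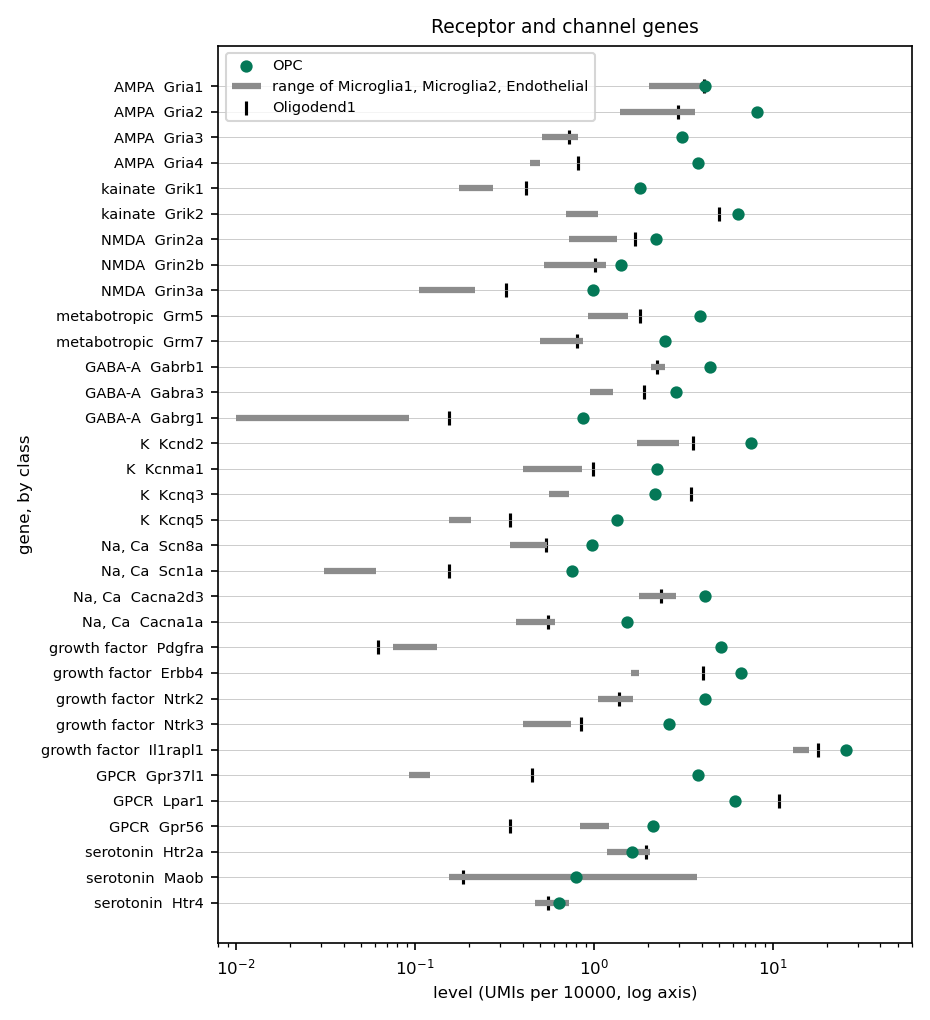
Level in OPC (green points, UMIs per 10000, log axis) of receptor and channel genes grouped by class, with the range over Microglia1, Microglia2 and Endothelial cells (grey bars; a level of 0 is drawn at 0.01) and the level in Oligodend1 (black ticks). Gria2, Gria3, Gria4 and Grik2 lie clear of the grey bars in OPC, whereas Gria1, Lpar1, Htr2a, Maob and Htr4 lie within or next to them.

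Ionotropic glutamate receptor genes were widely present. Of 18 AMPA, kainate, NMDA and delta subunit genes, 11 stood above background. The AMPA subunit gene Gria2, which makes the channel calcium-impermeable, stood at 10.5, 5.17, 9.39 and 5.26 in FT and at 8.66, 9.65, 8.90, 4.93 and 11.3 in Sham, against a highest background of 3.67. All 9 replicates lay above it. Gria4 stood at 3.80 against 0.5002, Gria3 at 3.10 against 0.811, and the kainate subunit genes Grik2 at 6.43 against 1.06 and Grik1 at 1.81 against 0.273. Grid1, Grin3a, Grik3, Grik4 and Grik5 were also above it. The NMDA subunit genes Grin2a (2.23 against 1.34) and Grin2b (1.41 against 1.17) were under 2 times background, and Gria1 stood at 4.20 against 4.06.

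Of 11 auxiliary AMPA subunit genes Cacng7 (1.29 against 0.0934) and Shisa7 (0.517 against 0.0738) stood above background. Of 8 metabotropic glutamate receptor genes Grm5 (3.92 against 1.55), Grm7 (2.51 against 0.870) and Grm8 (0.517 against 0.218) did. GABA-A and glycine receptor genes gave 5 of 15, among them Gabra3 (2.88 against 1.28), Gabra2 (1.253 against 0.405), Glrb (0.935 against 0.0622) and Gabrg1 (0.875 against 0.0934). Gabrb1 stood at 4.44 against 2.49 and missed the rule.

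Voltage-gated channels were sparser. Of 84 potassium channel genes, 67 had UMIs in OPC and 8 stood above background: the A-type channel gene Kcnd2 (7.58 against 3.01) with its interacting proteins Kcnip1 (0.836 against 0.103) and Kcnip3 (0.656 against 0.0934), the calcium-activated Kcnma1 (2.25 against 0.856), the M-type Kcnq3 (2.19 against 0.723) and Kcnq5 (1.35 against 0.207), and Kcnh7 and Kcnh8. The inward rectifier gene Kcnj10 stood at 0.139 against 0.136. Of 13 sodium channel genes only Scn1a did (0.756 against 0.0606), and of 17 calcium channel genes Cacna1a (1.53 against 0.606) and Cacnb4 (0.438 against 0.133). Among 42 chloride, TRP, HCN, purinergic and mechanosensitive channel genes, 5 stood above it, among them Trpm3 (2.67 against 1.17), Clcn3, Trpc5 and Tmem63c. Of these 5 genes, 3 met the same fold among cells of at least 2% ribosomal UMIs.

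Fluoxetine blocks the serotonin transporter, and none of 15 genes of serotonin receptors, transporter and monoamine oxidases stood above background in OPC. Htr2a was at 1.63 against 2.07, Maob at 0.796 against 3.78 and Htr4 at 0.637 against 0.723. Htr2c, Htr7 and Htr2b were each at 0.219, Maoa at 0.159 and Htr3b at 0.0995. The transporter gene Slc6a4 itself was at 0.0398 against 0.0455. Htr1a, Htr1f, Htr3a, Htr5a, Htr5b and Htr6 had 0 UMIs in 502691, which allows a level of up to 0.0597 each. These genes did not exceed their level in the 3 background types, and whether those types express some of them themselves was not tested.

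Whether fluoxetine moved the number of OPC was asked first on replicate shares. OPC made up 9.79%, 6.60%, 10.7% and 7.07% of dorDG cells in FT replicates 1, 2, 4 and 5. In Sham replicates 1 to 5 they made up 8.70%, 5.80%, 2.00%, 2.96% and 4.31%. Exact 95% intervals were wide, from 5.46% to 15.9% in FT replicate 1 and from 0.243% to 7.04% in Sham replicate 3. The groups overlapped, since Sham replicate 1 lay above FT replicates 2 and 5. The means were 8.54% ± 2.01 (SD, n = 4) and 4.75% ± 2.63 (SD, n = 5), a difference of 3.78 percentage points that did not pass the test (two-sided exact permutation test, p = 0.0635, adjusted over 6 tests on replicates 0.229, smallest possible p 0.0159). The difference was 2.33 (exact permutation p = 0.365) among cells of at least 2% ribosomal UMIs. It was 5.07 (exact permutation p = 0.0476) among cells that the written filter keeps (at least 1000 genes, at most 20000 UMIs). Leaving out each replicate in turn gave exact permutation p from 0.0286 to 0.143, the smallest without Sham replicate 1 (difference 4.77). The p-values of these alternatives were not adjusted. First reactions gave 10.9% OPC and second reactions 3.85% in the replicates that had both. In the replicates with a single reaction, the low-ribosomal share of all dorDG cells also differed. It was 14.5% and 14.1% in FT replicates 4 and 5, and 71%, 31.9% and 44.0% in Sham replicates 3, 4 and 5. Its part in the OPC shares was not tested.

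As a share of the oligodendrocyte lineage (OPC, Oligodend1 and Oligodend2), OPC were 40%, 25.5%, 34.1% and 20.6% in FT and 28.2%, 16.3%, 9.09%, 22.2% and 15.6% in Sham. These groups overlapped as well. The means were 30.1% ± 8.68 (SD, n = 4) and 18.3% ± 7.22 (SD, n = 5). The difference of 11.8 percentage points did not pass the test (exact permutation p = 0.0794, adjusted 0.229), and was 5.60 among cells of at least 2% ribosomal UMIs (exact permutation p = 0.476).

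**Figure D4:**
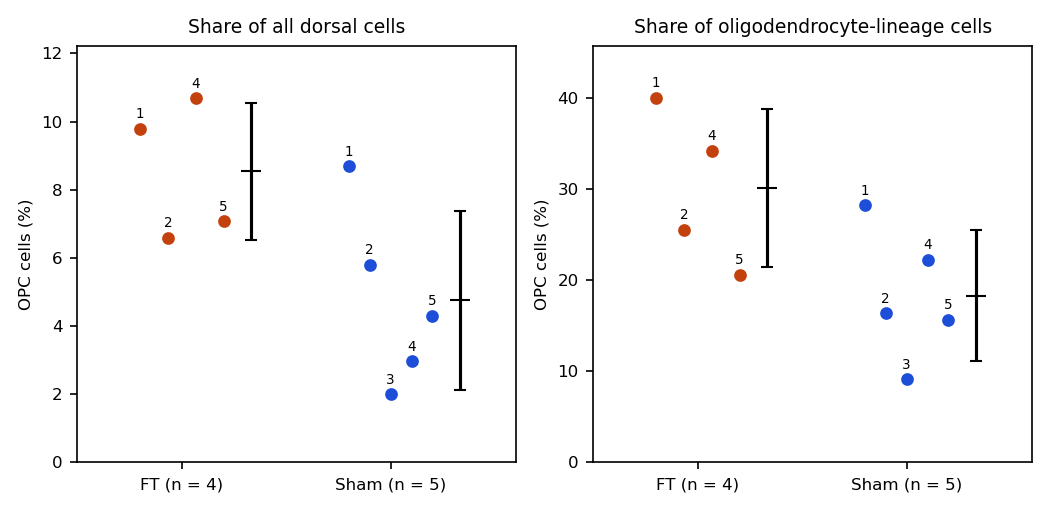
OPC as a percentage of all dorDG cells (left) and of oligodendrocyte-lineage cells (right), with a point for each replicate, its number above it, and the mean ± SD of each group beside it (4 FT and 5 Sham replicates). Sham replicate 1, at 8.70% of dorDG cells, lies among the FT replicates, and the lowest value is Sham replicate 3 at 2.00%.

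The share of OPC UMIs from 75 nuclear genes of oxidative phosphorylation, the respiratory chain and ATP synthase, was 1.66%, 2.30%, 2.04% and 2.1003% in FT replicates 1, 2, 4 and 5. Among the Sham replicates with at least 5 OPC it was 1.63% in replicate 1, 0.9996% in replicate 2 and 1.91% in replicate 5, and Sham replicates 3 and 4, with fewer cells, had 1.37% and 1.96%. The means were 2.03% ± 0.27 (SD, n = 4) and 1.51% ± 0.46 (SD, n = 3), and the groups overlapped. The study reported a higher oxidative phosphorylation score under fluoxetine in dorDG OPC, with its own gene list and a test over single cells. On replicates, the difference of 0.514 percentage points in UMI share gave an exact permutation p of 0.114 (adjusted 0.229). The 35 splits cannot give less than 0.0571. Sham replicate 2, the lowest, was the one with 87.5% low-ribosomal OPC, and without it the difference was 0.259. Among cells of at least 2% ribosomal UMIs the difference was 0.299, but Sham replicate 2 kept only 1 OPC there and dropped out. The cell filter and the loss of that replicate therefore cannot be told apart. For the low-ribosomal share itself, means of 18.1% ± 17.9 (FT) and 39.2% ± 44.5 (Sham) gave p = 0.514 (exact permutation test).

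Gene by gene, FT and Sham were compared on OPC counts summed per replicate, over FT replicates 1, 2, 4 and 5 and Sham replicates 1, 2 and 5. Here and below, the same fit on cells of at least 2% ribosomal UMIs held 4 FT and 2 Sham replicates (57 cells). Sham replicate 2 kept 1 OPC there and dropped out, so the cell filter and its loss cannot be told apart. Of 4450 genes tested, 0 passed an adjusted p of 0.2 (0%, edgeR; smallest adjusted p 0.300). At an unadjusted p under 0.05 there were 211 (4.74%), 101 higher (2.27%) and 110 lower (2.47%) in FT. DESeq2 and limma called 0, with 87 and 192 at unadjusted p under 0.05. Replicates of the 2 groups did not overlap for 284 genes (6.38%), with FT above for 2.83% and below for 3.55% of genes. The median log2 fold change over all genes was 0.04. In summed counts, another mix of cells and another amount of RNA per cell cannot be told apart.

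Glutamate receptor and channel genes had mostly negative fold changes. Gria1 stood at 2.84, 3.17, 2.16 and 0.842 in FT and at 5.40, 14.7 and 6.65 in the Sham replicates tested, and at 7.12 and 4.44 in Sham replicates 3 and 4. The log2 fold change was -1.78 ± 0.42 (SE, p = 1.3e-04, adjusted p = 0.30), and every FT replicate lay below every Sham replicate. That order rested on the single cell of Sham replicate 1 described above, without which the replicate stood at 1.85, among the FT replicates, and the log2 fold change was -1.49 (adjusted p = 0.99). It was -0.77 without the 6 cells lacking Pdgfra, Vcan and Cspg4 and -0.75 among cells of at least 2% ribosomal UMIs. The latter fit lacked Sham replicate 2, which had the highest Gria1 level. Of 14 AMPA, kainate, NMDA and delta subunit genes tested, 13 had a negative fold change and 2 an unadjusted p under 0.05 (Gria1 and Gria4), with a median of -0.31. Without the 6 cells 10 of the 14 were negative, with a median of -0.14 and none at an unadjusted p under 0.05.

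The 5 metabotropic receptor genes tested were all negative (median -0.82), and Grm3 and Grm5 had an unadjusted p under 0.05. So were the 7 calcium channel genes (median -0.57, Cacnb2 and Cacna1d under 0.05) and the 6 chloride, TRP and HCN genes (median -0.40). Of 18 potassium channel genes 11 were negative (median -0.44, Kcnd2 and Kcnh1 under 0.05), and both sodium channel genes were, Scn1a with -2.35 ± 0.64. GABA-A and glycine receptor genes were 3 positive and 4 negative, with a median of -0.16. No gene of these lists was called. Without the 6 cells, 4 of the 5 metabotropic receptor genes and 5 of the 7 calcium channel genes were negative (medians -0.59 and -0.16), and of 3 sodium channel genes then tested 1 was. Summed neuronal markers were 8.88, 4.33, 6.60 and 6.73 in the FT replicates and 11.6, 14.7 and 7.98 in Sham replicates 1, 2 and 5. Only FT replicate 1 lay above a Sham replicate. Without the single cell, which held 73 of 125 neuronal UMIs in Sham replicate 1, that replicate stood at 5.36, below FT replicates 1, 4 and 5, and the part of these markers in the values was not tested.

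Growth factor receptors gave 4 positive and 5 negative fold changes (median -0.13). Erbb4 stood at 5.06, 4.75, 5.45 and 5.47 in FT and at 10.3, 9.65 and 7.64 in Sham, without overlap among the replicates tested (log2 fold change -0.80 ± 0.34, adjusted p = 0.936), but Sham replicate 3 had 2.97. Ntrk3 had -0.95 ± 0.44. Pdgfra (0.04), Cspg4 (0.22) and Vcan (0.20) had fold changes near 0. All 3 were negative among cells of at least 2% ribosomal UMIs (-0.36, -0.08 and -0.03), where Sham replicate 2 dropped out. The 19 identity genes tested were 7 positive and 12 negative (median -0.10). Of 28 guidance and adhesion genes 19 were negative (median -0.22), with Nrxn2 (0.99 ± 0.48) at an unadjusted p under 0.05.

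Genes of energy metabolism and translation leaned the other way. Of 71 oxidative phosphorylation genes tested 61 (85.9%) had a positive fold change, against 52.6% of all genes, with a median of 0.42. For 7 (9.86%) every FT replicate lay above every Sham replicate tested, against 2.83% of all genes. Among cells of at least 2% ribosomal UMIs, without Sham replicate 2, 57 of 72 were positive, with a median of 0.205, against 53.3% of all genes. Ndufb2, Uqcrh, Cox7a2 and Atp5i, 4 of the 71 (5.63%), had an unadjusted p under 0.05, a share near the 4.74% of all genes. Atp5i, a subunit of the ATP synthase, stood at 3.95, 5.07, 5.20 and 3.79 in FT and 3.26, 2.70 and 0.997 in Sham (0.88 ± 0.42, adjusted p = 0.936). Uqcrh, a subunit of respiratory complex III, was named by the study in oligodendrocytes and inhibitory neurons. In OPC it stood at 1.73, 2.64, 4.44 and 3.58 in FT and 2.05, 1.54 and 0.665 in Sham (0.97 ± 0.46, adjusted p = 0.936), with overlap.

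Of 90 cytosolic ribosomal protein genes 82 had a positive fold change (median 0.29), and none an unadjusted p under 0.05. Among cells of at least 2% ribosomal UMIs, without Sham replicate 2, 64 of 90 were positive (median 0.13). Rps3, Rpl18 and Rpl23a had 0.38, 0.77 and 0.17, and the respiratory genes Uqcrq, Ndufv2 and Atp5d 0.58, 0.51 and 0.29. The study also named Gabrb1, Gria2, Gria3 and Syt1 in oligodendrocytes, and here they had -0.33, -0.30, -0.29 and -0.85. The adjusted p of each of these 10 genes was at least 0.936. Sham replicate 2, with 87.5% low-ribosomal OPC, was the lowest of the Sham replicates tested in Rps3, Rpl18, Rpl23a, Uqcrq and Atp5d, and the part of its low-ribosomal cells was not tested.

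Committed-stage genes gave 8 positive and 3 negative fold changes (median 0.40) and mature oligodendrocyte genes 6 and 10 (median -0.34). Summed committed genes were 33.4, 54.7, 31.6 and 23.4 in FT and 30.1, 31.3 and 29.2 in the Sham replicates tested. Sirt2 had 1.27 ± 0.58, with 13.4 in FT replicate 2. A single cell of that replicate, without a Pdgfra UMI, had a Sirt2 level of 51.7 and the highest committed sum of any OPC. Its part in these values was not tested. Mobp had -1.14 ± 0.42, with 28.2 in Sham replicate 2 and 3.66 in Sham replicate 5. The summed myelin genes were 61.8 to 112 in FT and 43.9 to 211 in the Sham replicates tested. Among astrocytic genes, Aldoc stood at 4.81, 2.85, 4.44 and 3.79 in FT and 1.86, 0.772 and 2.66 in Sham (1.16 ± 0.44, adjusted p = 0.936), with 6.41 in Sham replicate 4, and Gfap had 1.62 ± 0.60. Summed astrocytic genes ran from 10.9 to 13.0 in FT and were 7.07, 4.25 and 7.31 in the Sham replicates tested, without overlap, but 16.0 and 13.3 in Sham replicates 3 and 4, and their part in the values was not tested. Maob, the only serotonin-related gene at an unadjusted p under 0.05, had 1.80 ± 0.83 and rested on 27 UMIs in FT replicate 2.

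The 10 named genes with the smallest p in each direction were not called. Higher in FT were Ttr, the folate enzyme gene Mthfd1l (2.05 ± 0.55), Nat8b (1.98 ± 0.54), Cystm1 (2.41 ± 0.70), Slc24a1 (2.78 ± 0.84), Cnbd2 (1.48 ± 0.47), Clvs1 (1.30 ± 0.43), Cbfa2t2 (1.58 ± 0.53), Fam210a (3.24 ± 1.08) and the mitochondrial pyrophosphatase gene Ppa2 (2.20 ± 0.76). Mthfd1l stood at 4.69, 8.45, 1.52 and 2.74 in FT and 1.40, 1.16 and 0.332 in Sham, without overlap among the replicates tested, but at 1.97 in Sham replicate 4, and 32 of its UMIs in FT replicate 2 came from a single cell. Nat8b stood at 3.95, 1.90, 3.17 and 1.89 in FT and 0.558, 1.54 and 0.332 in Sham, without overlap. Both had an adjusted p of 0.595.

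Ttr, the thyroid hormone carrier abundant in choroid plexus, was 0 in FT replicates 1 and 2, 23.1 (182 UMIs) in FT replicate 4, 1.05 in FT replicate 5 and 0 in Sham replicates 1, 2, 3 and 5. Sham replicate 4, which had too few OPC for the test, stood at 9.37. Against the limit of 3 UMIs over the Sham replicates tested, FT was at least 33.7-fold higher (adjusted p = 0.346), a value that FT replicate 4 decides. Oligodend1 cells of the same replicates showed the same order, with 18.1 in FT replicate 4, 1.44 in FT replicate 5, 3.62 in Sham replicate 4 and 0 elsewhere. Ttr UMIs were present in all 12 cell types, at levels from 0.603 to 5.78.

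Lower in FT were Gria1, the sodium channel gene Scn1a, Nt5dc1 (-2.05 ± 0.57), Glt1d1 (-2.89 ± 0.87), the RNA polymerase III subunit gene Polr3b (-2.43 ± 0.73), the kinase gene Pak3 (-1.66 ± 0.52), Pknox2 (-1.70 ± 0.53), the argonaute gene Ago1 (-1.89 ± 0.59), the sialyltransferase gene St6gal1 (-2.41 ± 0.76) and Rnf13 (-1.61 ± 0.52). Scn1a stood at 0.370, 0, 0.634 and 0.210 in FT and 1.21, 1.93 and 2.33 in Sham, without overlap among the replicates tested, and at 0.493 in Sham replicate 4. Rnf13 stood at 1.85, 3.70, 2.54 and 1.89 in FT and 2.14, 2.32 and 22.3 in Sham, where 62 UMIs of Sham replicate 5 came from a single cell. Glt1d1 and Polr3b rested on the same replicate, with 14 and 12 UMIs of a single cell each in Sham replicate 5.

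**Figure D5:**
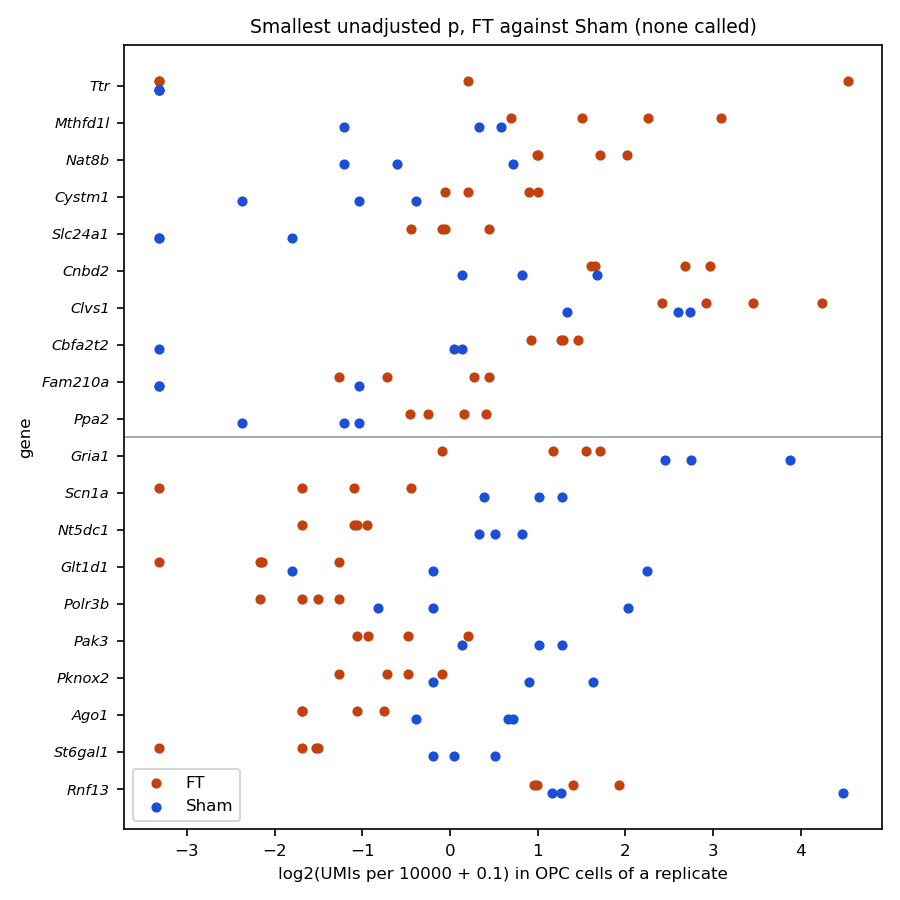
Level in OPC of each replicate tested (4 FT and 3 Sham, in different colours) for the 10 named genes with the smallest unadjusted p in each direction, as log2(UMIs per 10000 + 0.1), higher in FT above the grey line and lower below it. Gria1 is lower in all FT replicates than in the Sham replicates, where 40 of the 58 UMIs of Sham replicate 1 came from a single cell, a single FT replicate carries most of Ttr, and Rnf13 is high in Sham replicate 5 only.

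The treatment effect in OPC was compared with that in Oligodend1, the authors' first cluster of oligodendrocytes, in a model with both cell types of each replicate. Of 4105 genes tested, 1 was called (0.0244%). Ace3, an angiotensin-converting enzyme family gene, differed by -8.76 ± 1.86 (SE, log2, OPC minus Oligodend1, adjusted p = 0.0237). It stood at 0, 0.106, 0.127 and 0.210 in the OPC of FT and at 0.372, 0 and 0.332 in those of Sham replicates 1, 2 and 5. In Oligodend1 it was 13.6 in FT replicate 1 and 0 in the others, and those 68 UMIs came from a single cell. Without FT replicate 1 no gene was called, nor without Sham replicate 1 or Sham replicate 5, while 5 were called without FT replicate 2, and DESeq2 called 0 (54 at unadjusted p under 0.05, against 163 by edgeR). Among cells of at least 2% ribosomal UMIs 5 genes were called, namely Ace3, Fabp7, Mthfd1l, Nat8b and Rnf13. That fit held 4 FT and 2 Sham replicates (129 cells). A single OPC held 62 of the 67 Rnf13 UMIs of Sham replicate 5, and another 32 of the 80 Mthfd1l UMIs of FT replicate 2. Over all cells Ace3 alone was called, and that call rested on a single Oligodend1 cell. A treatment effect that differed between OPC and Oligodend1 was thus not shown for any gene over all cells.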

How the data were processed

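The authors deposited raw UMI counts per gene and cell, made with Cell Ranger from 10x Genomics 3′ v2 libraries, and a cell annotation of other per-cell information with the cell type names; Seurat 3 and rn5 stand in the submitters' processing notes. Groups and replicates came from the labels, and the reactions of a replicate were summed. The authors' filter was kept, no doublet caller was run, and none is named in the sources used here. The written filter (at least 1000 genes, at most 20000 UMIs and 25% mitochondrial UMIs) would keep 83 of 87 OPC. The tests took replicates with at least 5 OPC and kept genes averaging 0.5 UMIs per 10000 or more, in edgeR 4.0.16 (quasi-likelihood F-test, TMM, Benjamini-Hochberg adjustment), with DESeq2 1.42.0 and limma 3.58.1 as alternatives in R 4.3.3; the edgeR test was tried on simulated counts first. Shares were compared by exact permutation over replicates. Gene symbols are the authors', reads of near-identical ribosomal and respiratory gene copies may be shared, and no strand setting is stated. Members and gene lists were chosen with earlier results of these data known. Genes were named as the markers, the study's own, the highest of each list, the 20 highest ratios, and the 10 smallest p per direction (loci without a name left out); any other was named after its values were seen. Replicates are pools of animals, so p-values cover the spread between pools. FT and Sham replicates sharing a number were not treated as paired: no source used here says what the number stands for in the single-cell libraries, and the deviations of numbers 1, 2 and 5 correlated at -0.117, -0.0227 and 0.0583.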

Additional observations from a re-analysis of the deposited data

Results flagged for a closer look

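In 43 groups of 4 or 5 replicates, 4 values stood further from their group than a gap test at 95% allows, where chance flags about 1 in 20 groups. Ttr in FT replicate 4 was 23.1 UMIs per 10000, far above the other FT replicates. St6gal1 was 0 in FT replicate 2, Rps3 was 5.70 in FT replicate 2 and Atp5d was 0.864 in FT replicate 1, each apart from 3 FT replicates that lay close together. Ace3 was singled out because its treatment effect differed between OPC and Oligodend1 by -8.76 (log2), a difference that a single Oligodend1 cell of FT replicate 1 decides.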

How the results depend on the processing

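The FT against Sham count of 0 called genes was also 0 with RLE factors, a mean of at least 1 UMI, a threshold of 0.05, at least 1 OPC per replicate, the written filter, DESeq2, limma and the replicate block (3 against 3 replicates). It was 2 with library totals (LOC685888 and Gria1), 4 of 15956 genes with no filter on low values (Ttr, Mthfd1l, LOC685888 and Cntnap4), and 1 (LOC685888) with at least 10 OPC (where the lone Sham replicate is assumed to vary like FT), with cells of at least 2% ribosomal UMIs and, chosen after seeing the data, with first reactions and without the 6 cells lacking Pdgfra, Vcan and Cspg4; without the cell of most neuronal UMIs it was 0. Leaving out each replicate gave 0 to 1: Ttr without FT replicate 1, 2 or 5, Glt1d1 without Sham replicate 1, LOC685888 without Sham replicate 2 or 5. Of 43 LOC685888 UMIs in Sham replicate 1, a single cell held 38. The median log2 fold change of all genes moved from 0.04 to 0.11 with limma, 0.20 with no filter and 0.13 without Sham replicate 1.

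The OPC share of dorDG cells differed by 5.07 with the written filter, by 3.10 with the replicate block (exact sign-flip p = 0.125, the smallest 4 pairs allow) and by 3.07 to 4.77 without each replicate in turn; the lineage share by 8.45 to 14.9 and by 9.47 with the block; the oxidative phosphorylation share by 0.259 to 0.713; the Gpr17-positive share by 0 to 4.76. The Bmp4-positive share turned to 11.3 unthinned, 16.5 thinned to 2000 UMIs and 1.65 at 2% ribosomal UMIs, with a range of -4.13 to 0.238, and the low-ribosomal share ranged from -40.6 to 3.13, positive without Sham replicate 2. Bmp4 calls, all alternatives chosen after seeing the data, were 0 at 2% ribosomal UMIs and with DESeq2, 2 without the 6 cells or the neuronal cell, 1 without the replicate block, 1 at 0.05 and 1 to 27 without each replicate. Calls against Oligodend1 were 5 at 2% ribosomal UMIs, 0 with DESeq2 and 0 to 5 without each replicate. The cause was not tested.

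Of the log2 fold changes of single genes over all alternatives, 648 kept their side, 7 gained a call and 28 changed sign. The 28 were Rnf13 (0.33 at 10 OPC; -2.13 to 0.22 without each replicate, positive without Sham replicate 5), Rps3 (-0.010, first reactions), Rpl23a (-0.015 at 10 OPC, -0.030 in first reactions, -0.048 with the replicate block; -0.030 to 0.39, negative without FT replicate 4), Ndufv2 (-0.034 at 10 OPC), Gria3 (0.018 at 2% ribosomal UMIs, 0.031 in first reactions, 0.14 without the 6 cells), Pdgfra (-0.0076 with library totals, -0.034 at a mean of 1, -0.10 with any OPC, -0.24 at 10 OPC, -0.36 at 2% ribosomal UMIs, -0.38 in first reactions, -0.085 without the 6 cells, -0.026 without the neuronal cell; -0.34 to 0.31, negative without FT replicate 4 or Sham replicate 2), Cspg4 (-0.21 with limma, -0.079 at 2% ribosomal UMIs, -0.10 with the replicate block; -0.036 to 0.49, negative without FT replicate 4) and Vcan (-0.031 at 2% ribosomal UMIs, -0.025 in first reactions; -0.0042 to 0.44, negative without Sham replicate 2). A Gpr17 split could not be fitted, as no replicate held 3 positive cells, and a thinned Bmp4 split was left with 2 replicates and was not run. With 2 to 20 OPC per replicate, depth limits all counts above.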
